A study of Rattus norvegicus with 6 samples.

Results

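The transcripts described here encode 10 transcription factors and nuclear receptors that work at the output side of the circadian clock: the PAR bZIP factors Dbp, Tef and Hlf, the bZIP repressor Nfil3, the nuclear receptors Nr1d1, Nr1d2 and Rora, the DEC factors Bhlhe40 and Bhlhe41, and the repressor Ciart. They were chosen by gene symbol, and all 10 were found among the 24005 gene symbols of the expression table. These genes and the gene lists set beside them were chosen with earlier results of these data known. The 6 RNA-seq libraries, 3 per group, were made from aortas of rats whose kidneys had been surgically reduced to model chronic kidney disease. All rats had lost 5/6 of their kidney mass in 2 operations and ate a diet with 1.2% phosphorus, which speeds up calcification of the vessel wall. One group received engineered exosomes, cell-derived vesicles that the labels call ANCR/E7-EXO, at 10 mg/kg into the tail vein every 5 days, and the control group received the same volume of saline for 13 weeks. Strain, age, sex and the hour at which the aortas were taken were not given in the sources used here, and no rats without kidney disease were analysed here. Whether every library stands for its own rat is not in the labels, so a p-value measures only the spread between these libraries.

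The circadian clock is a loop in which the CLOCK and BMAL1 proteins bind E-boxes and switch on their own repressors, the PER and CRY proteins. The same E-boxes drive output factors. DBP, TEF and HLF activate genes through D-boxes, NFIL3 represses the same sites, and the REV-ERB receptors (Nr1d1, Nr1d2) and RORA compete for response elements in genes such as Bmal1. In rodent vessels most of these transcripts swing widely over the day, Dbp and Nr1d1 among the widest, and Rora little.

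Expression was given as FPKM, reads scaled by gene length and by the library's total, so that levels can be set side by side between genes. Implied library totals ran from 28063355 to 44561082 reads or read pairs. The smooth muscle markers Acta2, Myh11, Tagln, Cnn1, Smtn and Lmod1 summed to between 13468 and 21219 FPKM in every library, and these contractile genes of the vessel wall were the most abundant of the marker groups measured. Summed perivascular fat markers ran from 379.6 to 1194 FPKM in the saline libraries and from 436.1 to 787.0 FPKM in the exosome libraries. Summed lymphocyte markers stayed at or below 1.78 FPKM in every library. Cd79b was at 0 in saline 2 and exosome 2 and Ms4a1 at 0 in saline 1 and saline 2. Endothelial markers summed to between 83.5 and 117.9 FPKM with saline and between 127.7 and 200.2 FPKM with exosomes. Macrophage markers summed to between 41.1 and 45.3 FPKM with saline and between 63.3 and 70.7 FPKM with exosomes, again without overlap. By single genes, 3 of 7 endothelial and 4 of 5 macrophage markers had all exosome libraries above all saline libraries. So did 9.4% of all genes with a mean of at least 1 FPKM. Kdr, an endothelial marker, had a lower mean with exosomes (3.23 against 4.14 FPKM). In bulk tissue, fewer cells of a type and less RNA per cell cannot be told apart.

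The E-box CACGTG, which reads the same on both strands, was present in the promoter window of 5 of the 9 genes that RefSeq's GRCr8 promoter table holds, where 6.42% of all 33469 windows have it. Each window runs from 250 bases before the gene's start to 50 bases after it. The table has no entry for Hlf and a pair of entries for Nr1d1, of which the second holds the E-box. The count of 5 is thus by gene, over 10 windows of the 9 genes, while the 6.42% is by window. The 30-base stretches around single E-boxes are shown for the bases that flank them. They carry the E-box in capitals and read 5′ to 3′ on the gene's strand.
Tef, chr7:115206617-115206646, plus strand, 198 bases before the start: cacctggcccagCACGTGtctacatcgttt
Nr1d1, chr10:84229628-84229657, minus strand, 191 bases before the start: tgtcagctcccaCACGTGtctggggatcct
Bhlhe40, chr4:143174218-143174247, plus strand, 220 bases before the start: agcgttgtccaaCACGTGagactcatgtga
Bhlhe41, chr4:180569386-180569415, minus strand, 48 bases before the start: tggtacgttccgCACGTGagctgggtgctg

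Ciart held 3 E-boxes, the most of any of the 9 genes, at 93, 35 and 21 bases before its start. Its window lies at chr2:186112197-186112496 on the minus strand of GRCr8 and is shown whole for the spacing of the E-boxes, which are in capitals.
Ciart: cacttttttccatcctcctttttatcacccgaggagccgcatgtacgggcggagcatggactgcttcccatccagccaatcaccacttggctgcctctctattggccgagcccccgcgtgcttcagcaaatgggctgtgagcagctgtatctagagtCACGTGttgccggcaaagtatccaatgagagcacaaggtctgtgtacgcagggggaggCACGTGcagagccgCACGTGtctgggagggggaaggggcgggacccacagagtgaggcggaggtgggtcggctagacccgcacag
The letters CACGTG were not found in the windows of Dbp, Nfil3, Nr1d2 and Rora, or in the first window of Nr1d1. The D-box letters TTANNTAA, where N is any base, were found in none of the 9 genes and in 5.84% of all windows. The nuclear receptor core motif AGGTCA, searched on both strands, was found in Nr1d2 alone, 187 bases before its start, and in 16.2% of all windows. Such a match describes letters in a window and does not show a bound site. Bases outside the windows were not searched, so a missing match does not show that a gene lacks the motif.

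The comparison asked which of these genes differed between exosome-treated and saline-treated aortas. None of the 9 genes that could be tested passed an adjusted p of 0.05 in limma, which was fitted to log2(FPKM + 1) of all 11742 genes with a mean of at least 1 FPKM. Over all genes the same test called 0.00852% higher and 0% lower. At an unadjusted p under 0.05 the count was 1 of 9 genes, Nfil3, which was lower with exosomes, against 9.24% of all genes lower, 6.75% higher and 16% in either direction. limma-voom on recovered reads gave 0 adjusted calls among the 9 genes, against 1 over all genes. It had 1 of the 9 genes under an unadjusted 0.05, against 2009 of all 11742. In limma without saline 1 that unadjusted count was 2 (Nfil3 and Hlf), against 2121 of all 11742. Without saline 2 it was 3 (Nfil3, Bhlhe40 and Bhlhe41), against 1182 of all 11742. The values lay higher with exosomes for 7 of the 9 genes and lower for Nfil3 and Hlf, with a median log2 difference of 0.51. Over all genes the median was -0.07, and 39.3% lay higher. Without saline 1 the median of the 9 genes was 0.02, and 5 lay higher and 4 lower.

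**Figure D1:**
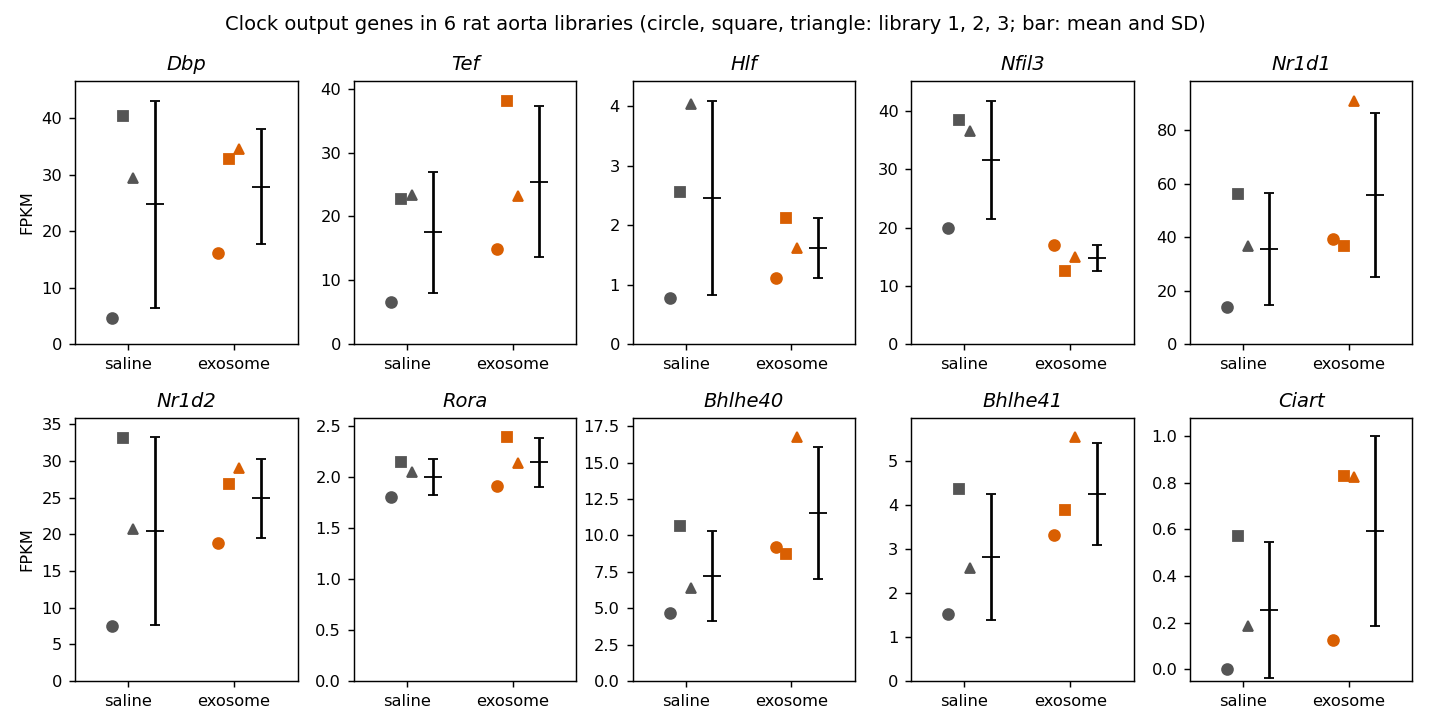
FPKM of the 10 genes in each library (vertical axes, a scale per gene), with saline in grey and exosome in orange; circles, squares and triangles are libraries 1, 2 and 3, and bars are the mean and SD of 3 libraries. Saline 1 was the lowest library for 9 of the 10 genes, and Nfil3 alone had all exosome libraries below all saline libraries.

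Nfil3, which encodes the repressor E4BP4, stood alone among the 10 in having groups that did not overlap. Its level was 19.97, 38.5 and 36.6 FPKM in saline 1, 2 and 3 and 17.0, 12.6 and 14.9 FPKM in exosome 1, 2 and 3. The exosome libraries lay close together and all below the lowest saline library, from which exosome 1 differed by little. The means were 31.7 ± 10.2 and 14.9 ± 2.20 FPKM (SD, n = 3 each), a ratio of 0.469. Its difference in log2(FPKM + 1) was -0.997 ± 0.25 (SE), with a 95% interval of -1.58 to -0.42 and a Benjamini-Hochberg adjusted p of 0.255 in limma. Of all genes tested, 11.7% had groups apart in the lower direction. Nfil3 ranked 201 of 11742 by unadjusted p. Between 898 and 3156 reads per library lay behind these values, so counting error was small beside the spread of the libraries.

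Dbp, the D-box activator named for the albumin promoter, varied most among the saline libraries. It stood at 4.61, 40.3 and 29.4 FPKM in saline 1, 2 and 3 and at 16.1, 32.8 and 34.5 FPKM in exosome 1, 2 and 3. Saline 1 lay far below the other 5 libraries, exosome 1 came next, and the groups overlapped. The highest saline value was 8.75 times the lowest, against 2.14 times among the exosome libraries. The SD of its log2 values within the saline group, 1.55, exceeded that of 99.7% of all genes tested. The means were 24.8 ± 18.3 and 27.8 ± 10.2 FPKM, and the log2 difference was 0.51 ± 0.71 (SE), with a 95% interval of -1.14 to 2.17 and an adjusted p of 0.718 in limma. Without saline 1 the sign turned, to -0.37 (adjusted p = 0.553 in limma). From 220 to 2186 reads per library were behind the values.

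Tef, the second D-box activator, had its lowest value in saline 1 as well. The saline libraries stood at 6.62, 22.7 and 23.3 FPKM and the exosome libraries at 14.9, 38.1 and 23.3 FPKM. Exosome 2 was the highest, exosome 1 the second lowest, and the groups overlapped. The log2 difference was 0.59 ± 0.50 (SE; adjusted p = 0.550 in limma), and 0.04 without saline 1 (adjusted p = 0.954).

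Hlf, the third PAR bZIP factor, was expressed at a low level and went the other way from Dbp and Tef in its means. It measured 0.781, 2.56 and 4.04 FPKM with saline and 1.11, 2.12 and 1.62 FPKM with exosomes. Saline 1 was again lowest, but saline 3 and saline 2 were the highest pair. The difference of -0.30 ± 0.37 (SE; adjusted p = 0.687 in limma) became -0.71 without saline 1 (adjusted p = 0.233) and 0.04 without saline 3 (adjusted p = 0.974). With saline 1 set aside, the exosome libraries of Hlf and of Nfil3 both lay below the remaining saline pair, a pattern that 24.5% of all genes tested shared.

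Nr1d1, which encodes REV-ERB-alpha, a haem-binding repressor of Bmal1, had the highest level of the 10 genes. It stood at 14.0, 56.0 and 36.8 FPKM in the saline libraries and at 39.4, 36.9 and 91.2 FPKM in the exosome libraries. Exosome 3 stood well above the other 5 libraries and saline 1 well below them. The groups overlapped, with saline 2 above exosome 1 and exosome 2. Its log2 difference was 0.71 ± 0.52 (SE), with a 95% interval of -0.51 to 1.93 and an adjusted p of 0.4998 in limma. It was 0.17 without saline 1 and 0.30 without exosome 3. Nr1d1 overlaps Thra, a thyroid hormone receptor gene, in the GRCr8 gene table, and the strand setting of the counting was not given in the sources used here: reads of the overlap cannot be assigned with certainty. Thra lay between 90.7 and 115.4 FPKM over the 6 libraries and did not share the low value of saline 1 (103.7 FPKM). Its exosome libraries (90.7 to 95.8 FPKM) all lay below its saline libraries (101.4 to 115.4 FPKM).

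Nr1d2, which encodes the second REV-ERB receptor, repeated the low value of saline 1. Saline 1, 2 and 3 had 7.50, 33.1 and 20.8 FPKM, and exosome 1, 2 and 3 had 18.8, 26.8 and 29.0 FPKM. The exosome libraries lay within the range of the saline libraries. The log2 difference was 0.46 ± 0.46 (SE; adjusted p = 0.613 in limma) and turned to -0.10 without saline 1 (adjusted p = 0.849).

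Rora, the activator that shares response elements with the REV-ERB receptors, was the steadiest of the 10 genes. Its values were 1.81, 2.15 and 2.05 FPKM with saline and 1.91, 2.39 and 2.14 FPKM with exosomes. The groups overlapped, although saline 1 was again the lowest library by a small margin. Its SD of log2 values in the saline group exceeded that of only 19.9% of all genes tested. The log2 difference was 0.07 ± 0.14 (SE), with a 95% interval of -0.26 to 0.40 (adjusted p = 0.819 in limma). Its relative Rorb was at 0 in 5 of the 6 libraries and reached 0.0214 FPKM in saline 3.

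Bhlhe40 and Bhlhe41 encode DEC1 and DEC2, repressors that bind E-boxes in competition with CLOCK and BMAL1. Bhlhe40 stood at 4.65, 10.7 and 6.37 FPKM with saline and 9.20, 8.70 and 16.8 FPKM with exosomes. Bhlhe41 stood at 1.53, 4.36 and 2.56 FPKM with saline and 3.31, 3.90 and 5.54 FPKM with exosomes. In both genes saline 1 was lowest, saline 3 next and exosome 3 highest, and saline 2 reached into the exosome range. The log2 differences were 0.62 ± 0.32 (adjusted p = 0.367) and 0.51 ± 0.29 (adjusted p = 0.401; SE, limma). They were 0.38 and 0.24 without saline 1 and 0.34 in both without exosome 3. Exosome 3, the highest library for Nr1d1, Bhlhe40 and Bhlhe41, also had the highest sum of 6 skeletal and cardiac muscle markers, 37.0 FPKM against 7.32 to 13.8 FPKM in the other libraries. None of the 6 markers was at 0 in any library. Ckm, most of the sum in the other libraries, was not raised in exosome 3 (8.56 FPKM, against 12.4 FPKM in saline 1). Tnnt2, Mb and Myh7 reached 8.58, 7.82 and 5.68 FPKM in exosome 3. They were at most 0.711, 0.285 and 0.0357 FPKM in the other libraries, and Actn2 and Myh6 were also highest in exosome 3. The part of such tissue in these values was not tested.

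Ciart, also called CHRONO, a repressor of CLOCK and BMAL1, was near the limit of detection and below the minimum for the test. It was 0, 0.571 and 0.187 FPKM in the saline libraries and 0.123, 0.830 and 0.824 FPKM in the exosome libraries. These values came from 0, 24 and 9 reads and from 6, 33 and 52 reads. The count of 0 in saline 1 allows up to 0.0631 FPKM (3 reads, counting error only). The groups overlapped, and an exact two-sided permutation test over the 6 libraries gave p = 0.30 for a log2 difference of 0.34, where 0.10 is the smallest p that 3 against 3 libraries allow.

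By mean level over the 6 libraries the order was Nr1d1 (45.7 FPKM), Dbp (26.3), Nfil3 (23.3), Nr1d2 (22.7), Tef (21.5), Bhlhe40 (9.39), Bhlhe41 (3.54), Rora (2.07), Hlf (2.04) and Ciart (0.422). Dbp, Nfil3, Nr1d2 and Tef differed from one another by less than the spread of each over libraries, and so did Rora and Hlf. The order within a group was not the same: with saline Nfil3 was second to Nr1d1, and with exosomes Dbp, Tef and Nr1d2 also stood above it.

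Saline 1 was the lowest library for 9 of the 10 genes, and for 8 of the 9 tested genes, where 15.3% of all genes tested had their lowest value there. The exception was Nfil3, which was lowest in exosome 2. No gene of the 10 had its highest value in saline 1 or exosome 1. On the log2(FPKM + 1) scale saline 1 lay below the 6-library mean by 2.03 for Dbp, 1.44 for Nr1d1, 1.40 for Tef and 1.35 for Nr1d2. For 8 of the 9 tested genes the SD of the saline group lay above that of at least 94.6% of all genes, with Rora as the exception, and in the exosome group the corresponding shares ran from 55.7% for Nfil3 to 97.6% for Nr1d1 over the same 8 genes. Saline 1 had the highest sum of smooth muscle markers (21219 FPKM), with exosome 1 next (20982 FPKM). It had the lowest sum of perivascular fat markers (379.6 FPKM), with saline 3 next (425.6 FPKM). The sum of 5 adventitial fibroblast markers was also lowest in saline 1 (1463 FPKM), with exosome 1 next (1536 FPKM). It ran from 1788 to 2388 FPKM in the other libraries, and 3 of the 5 markers were lowest in saline 1. The part of tissue makeup in the low values of saline 1 was not tested.

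**Figure D2:**
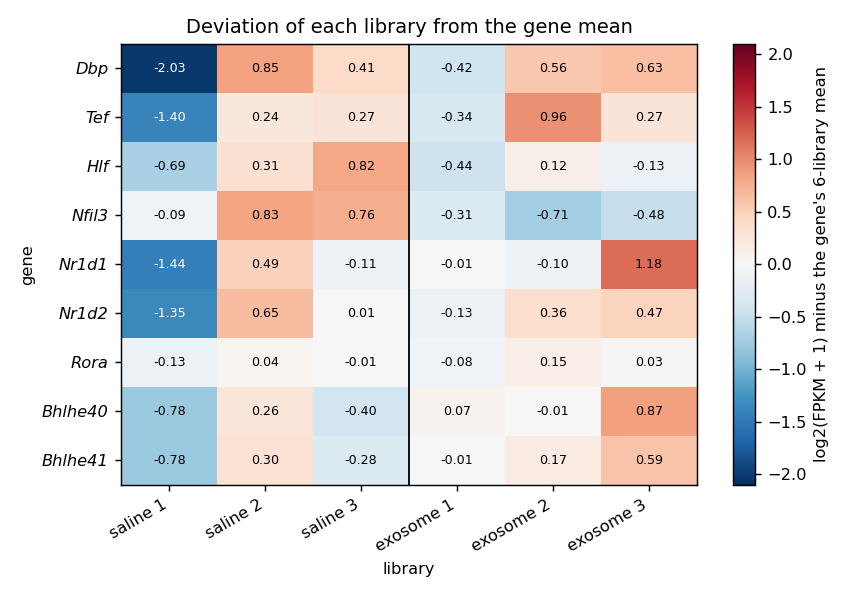
Each cell gives log2(FPKM + 1) of a gene (rows, 9 tested genes) in a library (columns) minus that gene's mean over 6 libraries, with blue below and red above the mean. The saline 1 column is negative for every gene, from -2.03 for Dbp to -0.09 for Nfil3, and the Nfil3 row is negative in all 3 exosome libraries.

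**Figure D3:**
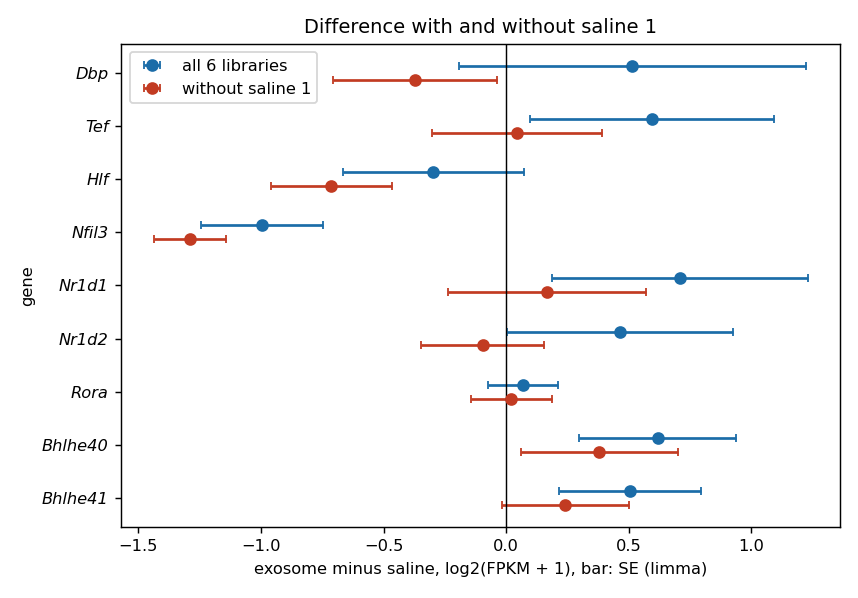
Points are the exosome minus saline differences of log2(FPKM + 1) (horizontal axis) for the 9 tested genes, with limma's SE as bars, over all 6 libraries (blue) and without saline 1 (red). All 9 points move to the left without saline 1; Dbp and Nr1d2 cross 0 and Nfil3 goes from -0.997 to -1.29.

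Ratios within a library do not depend on how libraries were scaled. Dbp was present at 0.231, 1.048 and 0.805 times the FPKM of Nfil3, its antagonist at D-boxes, in saline 1, 2 and 3. In exosome 1, 2 and 3 the ratio was 0.947, 2.60 and 2.31. Exosome 2 and 3 lay above all saline libraries, and exosome 1 lay between saline 3 and saline 2. As a mean of log2 ratios this was -0.79 ± 1.17 with saline and 0.84 ± 0.80 with exosomes (SD, n = 3 each), and no test was made because both genes belong to the chosen set.

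The ratio of Nr1d1 to its target Bmal1 (listed as Arntl) was 0.636, 4.03 and 1.68 with saline and 1.98, 3.28 and 4.77 with exosomes. Saline 1 was the only library with more Arntl than Nr1d1 by FPKM. Nr1d1 exceeded Rora in every library, by 7.76 to 26.1 times with saline and 15.4 to 42.6 times with exosomes. In all 3 ratios saline 1 was the lowest library. The numerators, Dbp and Nr1d1, were themselves lowest in saline 1, so this is not a separate observation.

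**Figure D4:**
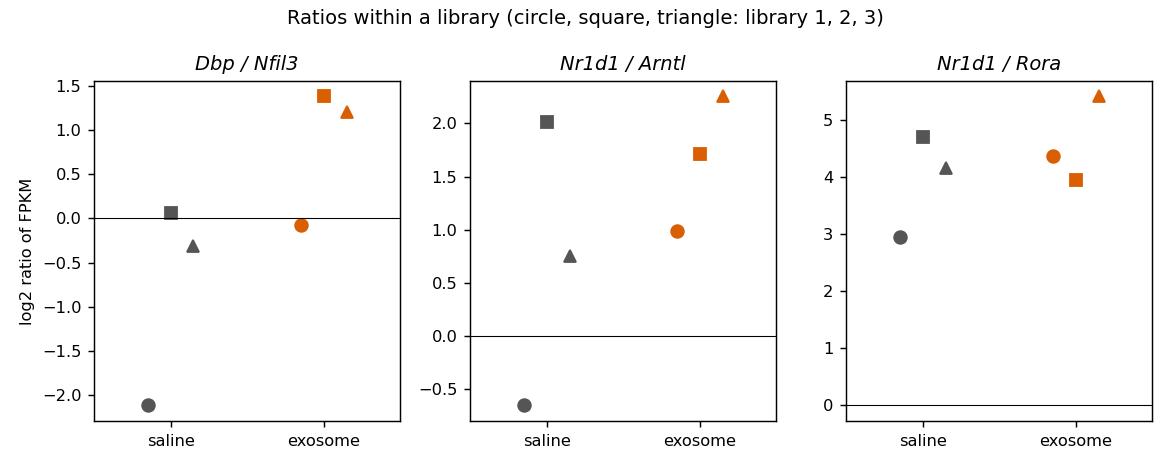
Log2 ratios of FPKM within a library for Dbp to Nfil3, Nr1d1 to Arntl and Nr1d1 to Rora (a vertical scale per panel), with saline in grey and exosome in orange; circles, squares and triangles are libraries 1, 2 and 3. Saline 1 is lowest in all 3 panels, as it is for the numerators Dbp and Nr1d1 themselves. For Dbp to Nfil3, exosome 2 and 3 (1.38 and 1.21) lie above the highest saline value (0.07).

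The core loop that drives these outputs was listed as 9 genes, all tested, of which 0 passed the adjusted threshold in limma. At an unadjusted p under 0.05, 3 were higher and 1 lower, where 6.75% of all genes were higher and 9.24% lower. The median log2 difference was 0.29, with 7 higher and 2 lower. Per2, a repressor of the loop, stood at 4.90, 7.68 and 7.22 FPKM with saline and 12.2, 26.9 and 19.7 FPKM with exosomes (adjusted p = 0.237), and Per1 had a log2 difference of 0.64 (adjusted p = 0.283). Both had groups apart in the higher direction, as did 9.4% of all genes. Npas2, a partner of BMAL1, had groups apart in the lower direction, as did 11.7% of all genes, with a log2 difference of -0.78 (adjusted p = 0.255). Clock itself lay between 14.5 and 16.5 FPKM in all libraries, and Arntl at 22.05, 13.9 and 21.9 FPKM with saline and 19.9, 11.2 and 19.1 FPKM with exosomes. Saline 1 was thus the highest library for Arntl, where it was the lowest for Dbp, Nr1d1 and Nr1d2, and it was the lowest for 5 of the 9 core genes.

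Of 10 listed clock kinases, ligases and partners 8 were tested and 0 passed in limma. At an unadjusted p under 0.05, 2 were higher and 1 lower, where 6.75% of all genes were higher and 9.24% lower. The casein kinase genes Csnk1d (log2 difference 0.28, adjusted p = 0.284) and Csnk1e (0.29, adjusted p = 0.285) encode kinases that phosphorylate PER proteins. Both had groups apart in the higher direction, as did 9.4% of all genes. Tipin had a difference of -0.47 (adjusted p = 0.285). Of 10 nuclear receptor relatives and corepressors 8 were tested and 0 passed, with 1 lower at an unadjusted p under 0.05 (9.24% of all genes). This was Nr1h3, the oxysterol receptor LXR-alpha, at -0.47 (adjusted p = 0.285). Of the 8 genes, 2 had groups apart in the lower direction, Nr1h3 and Thra (-0.20, adjusted p = 0.351), as did 11.7% of all genes. The REV-ERB corepressor genes Ncor1 (0.04, adjusted p = 0.864) and Hdac3 (-0.17, adjusted p = 0.4999) had groups that overlapped.

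Of 13 listed clock-controlled genes 12 were tested and 0 passed in limma, with 5 higher and 2 lower at an unadjusted p under 0.05 (6.75% and 9.24% of all genes) and a median log2 difference of 0.38. Fkbp5, a chaperone of the glucocorticoid receptor, stood at 3.69, 6.23 and 9.17 FPKM with saline and 17.3, 30.5 and 21.98 FPKM with exosomes (adjusted p = 0.219). Klf9, a Krüppel-like factor, had a log2 difference of 0.58 (adjusted p = 0.247), and Tsku, which encodes the secreted protein tsukushi, had 0.66 (adjusted p = 0.288). Of the 5 higher genes, 3 are also in the glucocorticoid-induced list: Fkbp5, Klf9 and Sgk1. In the list of 10 glucocorticoid-induced genes, all tested, 1 passed as higher in limma, Zbtb16 (log2 difference 2.08, adjusted p = 0.00806). Of the 10, 8 had an unadjusted p under 0.05, all higher, where 6.75% of all genes were. The list was chosen with earlier results of these data known, so this count is a description and not a test. Zbtb16 lost its call without saline 3 (adjusted p = 0.0865 in limma) and without exosome 1 (adjusted p = 0.0503). Saline 1 was the lowest library for 7 of these 10 genes, among them Fkbp5, Tsc22d3 and Per1. The summed level of the 10 genes was 492.2 FPKM in saline 1, 636.5 and 743.6 FPKM in saline 2 and 3, and 763.7 to 957.0 FPKM in the exosome libraries. Dusp1, the 1 gene of the list that lay lower with exosomes, was the largest part of the saline sums. It stood at 211.6, 336.6 and 462.4 FPKM in saline 1, 2 and 3, so the low sum of saline 1 rests largely on it. Nfkbia had its highest saline value in saline 1 (40.0 FPKM, against 23.6 and 26.6 FPKM in saline 2 and 3). With exosomes it stood at 64.4, 70.5 and 71.6 FPKM (log2 difference 1.20, adjusted p = 0.219 in limma). Of the 10 genes, 7 had groups apart in the higher direction, Nfkbia among them, as did 9.4% of all genes. The part of glucocorticoid-induced transcription in the levels of the clock output genes was not tested.

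Nfil3 can also be induced quickly by stimulation, so its values were set beside 15 immediate early genes, of which 14 were tested. None passed in limma, and 9 had an unadjusted p under 0.05, all lower, where 9.24% of all genes were. This list too was chosen with earlier results of these data known, so the count is a description and not a test. The median log2 difference was -1.38, against -0.07 over all genes. Cyr61, a matricellular protein gene, stood at 305.9, 845.0 and 930.1 FPKM with saline and 180.1, 152.4 and 168.0 FPKM with exosomes (adjusted p = 0.237). Egr3 (-1.62, adjusted p = 0.255) and Btg2 (-1.32, adjusted p = 0.255) followed. As for Nfil3, saline 1 lay between the other saline libraries and the exosome libraries for 3 of the 14 genes, Cyr61, Btg2 and Jun, while it lay above saline 2 for 7 of them, Fos, Egr1 and Egr3 included. The summed level of the 15 genes was 1078 FPKM in saline 1, 1973 and 2320 FPKM in saline 2 and 3, and 519.0 to 841.3 FPKM in the exosome libraries. Their part in the Nfil3 difference was not tested.

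To see which genes shared a pattern, the 3 genes with the smallest root mean square difference of centred log2(FPKM + 1) over the 6 libraries were taken for Dbp, Nr1d1 and Nfil3 from the other 11741 tested genes. For Dbp these were Ephx2, the soluble epoxide hydrolase gene (0.33), Nr1d2 (0.37) and the clock gene Per3 (0.38). Ephx2 stood at 0.783, 8.02 and 5.78 FPKM with saline and 5.32, 7.51 and 5.86 FPKM with exosomes, and Per3 at 2.31, 10.8 and 9.68 FPKM and 6.29, 12.8 and 8.48 FPKM. Both had their lowest value in saline 1, like Dbp. For Nr1d1 the nearest genes were all from the chosen 10: Bhlhe40 (0.34), Nr1d2 (0.36) and Bhlhe41 (0.39). For Nfil3 they were Mir6334 (0.08), a feature of 99 bp with only 2 to 12 reads in a library, Mfsd4 (0.14) and Pi15, a secreted protease inhibitor gene (0.15). Pi15 stood at 57.3, 134.3 and 109.6 FPKM with saline and 44.1, 34.6 and 42.1 FPKM with exosomes, so saline 1 was the lowest saline library and all exosome libraries lay below it. With 6 libraries, many genes can share a profile without any link.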

How the data were processed

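The values were FPKM as computed and deposited by the authors, in 1 table of 24005 gene symbols and 6 columns, each matching a sample title. Libraries were made with the SMARTER mRNA-seq kit, per the labels' protocols, and DESeq2 1.28.1 is listed, with no role, in the submitters' processing notes. The aligner, counting tool, strand setting, build and annotation were not given in the sources used here. The 10 genes and the gene lists were chosen with earlier results of these data known. FPKM steps gave whole reads within 0.02 for 18429 of 18430 genes above 0, with implied totals of 28063355 to 44561082 per library.

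limma 3.58.1 (R 4.3.3), with an intensity trend and no covariate, was fitted two-sided to log2(FPKM + 1) of 11742 genes with a mean of at least 1 FPKM, with Benjamini-Hochberg adjustment over all of them and a threshold of 0.05. This scale understates changes of low genes. Named genes were the 10, up to 3 of each pathway list with the smallest p, and 3 nearest profiles each of Dbp, Nr1d1 and Nfil3; other genes were named after their values were seen. Alternatives were other pseudocounts, filters, scalings and moderation, a replicate block, limma-voom on recovered reads, and each library left out. Python 3.11.15 was used for read recovery. One listed gene, below the expression minimum and so outside the counts of tested genes, is not reported here. Promoter sequences are RefSeq's, GRCr8.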

Additional observations from a re-analysis of the deposited data

How the results depend on the processing

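No gene of the 10 that was tested passed the adjusted threshold in either direction under the 15 alternatives, of which the fit with no filter tested all 10, the minimum of 5 FPKM tested 6, and the others tested 9, without Ciart. Of 132 values of single genes under these alternatives, 129 kept their sign, and 3 turned when a library was left out. These were Dbp (-0.37) and Nr1d2 (-0.10) without saline 1, and Hlf (0.037) without saline 3. Filters, moderation and the replicate block leave the difference itself unchanged, so the signs under them could not turn. With single libraries left out, Dbp ranged from -0.37 to 1.07, Nr1d2 from -0.10 to 0.90 and Hlf from -0.71 to 0.037. Nfil3 ranged from -1.29 to -0.83, with its lowest adjusted p, 0.0628, without saline 1. Over all genes, 1 passed as reported, 9 passed without saline 1, 4 without exosome 2, 2 without exosome 3 and 0 without saline 3 or exosome 1; the cause was not tested. Rescaling to the median of ratios moved the share of all genes lying higher from 39.3% to 49.0% and turned none of the 9 tested genes. With the minimum of 5 FPKM, Hlf, Rora and Bhlhe41 were not tested. Over all genes, same-numbered saline and exosome libraries did not deviate together (correlations of 0.07, 0.10 and -0.17 across genes), so the labels' numbers were not taken as pairs. With a replicate block 0 of the 9 tested genes passed, and Nfil3 had an adjusted p of 0.278. The block lowered the SE from 0.50 to 0.21 for Tef (adjusted p = 0.314), from 0.71 to 0.34 for Dbp and from 0.46 to 0.27 for Nr1d2. With it, 2 of the 9 genes, Nfil3 and Tef, had an unadjusted p under 0.05, against 1713 of all 11742 genes. Intervals for Dbp, Tef and Nr1d1 were wide although at least 220 reads lay behind each value; for Ciart, with 0 to 52 reads, depth limits what can be seen.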
